A study of Mus musculus with 2 samples.

Results

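Heat shock chaperones are proteins that bind unfolded or newly made proteins and help them fold, hold them in solution or pass them on for breakdown. The set examined here has 10 genes, taken by symbol from the 33696 genes listed in both count tables: Hspa1a, Hspa1b, Dnajb1, Hspb1, Hsph1, Hsp90aa1, Hsp90ab1, Hspa8, Hspa5 and Hspd1. Each symbol matched 1 row. The tissue was brain by the sample labels and prefrontal cortex by the design text, from mice labelled Shank3-/-, which lack both working copies of the gene for a scaffold protein of excitatory synapses. Shank3-/- mice that drank fluconazole, an azole drug against fungi, for 2 weeks gave 1 droplet library, made with 10x Genomics 3′ chemistry, in which each captured transcript counts once as a unique molecular identifier (UMI). The other library came from Shank3-/- mice on vehicle, named MOCK in the labels. The extraction text describes nuclei from frozen tissue, while the design text speaks of cells as well. Both groups carry the deletion, so neither shows what the deletion itself does to a chaperone. The labels used here do not give the age or sex of the mice, or how many of them each library holds.

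In textbook accounts, proteotoxic stress frees heat shock factor 1 (HSF1), which binds repeats of the pentamer nGAAn in promoters and switches on the inducible chaperones. Constitutive relatives of the same families fold proteins in unstressed cells. Hspa1a and Hspa1b encode the inducible cytosolic HSP70, Dnajb1 an HSP40 that delivers clients to HSP70, Hsph1 an HSP110 that exchanges its nucleotide, and Hspb1 the small heat shock protein HSP27, which holds unfolded clients and binds actin. These 5 genes form the inducible group below. Hspa8 encodes the constitutive cytosolic HSC70, Hsp90ab1 the constitutive cytosolic HSP90, Hspa5 the HSP70 of the endoplasmic reticulum known as BiP, and Hspd1 the mitochondrial chaperonin HSP60. These 4 genes form the constitutive group. Hsp90aa1, the stress-responsive cytosolic HSP90, is abundant in unstressed brain as well and was left out of both groups.

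After filtering, 10610 of 12637 fluconazole barcodes and 12892 of 14924 vehicle barcodes remained, with 68918276 UMIs in the fluconazole library and 67877915 UMIs in the vehicle library. The medians per barcode were 5258 UMIs with fluconazole and 4327 UMIs with vehicle. Clusters were named from marker genes, and a class name such as microglia stands for microglia-like barcodes. Comparisons cover the 12 classes that had 50 or more barcodes on both sides, and 8 of 35 clusters, holding 12.8% of fluconazole and 11.9% of vehicle barcodes, stayed unnamed. Striatal spiny neurons and neuroblasts, which textbooks place outside the prefrontal cortex, were among the classes. The larger of the 2 microglial clusters was led by the immune genes Ccl4, Il1a, Ccl3 and Tnf. The libraries shared 31 kept barcode sequences. Shank3 was at 53.6 CPM (UMIs scaled to the same total for each library or class) in the fluconazole library, with a 95% interval from 51.9 to 55.4, and at 48.7 CPM in the vehicle library (47.1 to 50.4). A 3′ tag can lie outside the deleted part, so those counts check no label. With 1 library per treatment there is no test between treatments, and barcodes of a library are not replicates. The 95% intervals account for counting error alone, and a difference between libraries cannot be told apart from one between mice, dissections or preparations.

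RefSeq promoters (build GRCm38.p6) were at hand for 7 of the 10 genes, and the 250 bases before the start are shown for 5 of them as examples of promoters with a heat shock unit pair or with the endoplasmic reticulum stress element. Pairs of heat shock units, GAANNTTC or TTCNNGAA, are in capitals in the first 4, and the endoplasmic reticulum stress element, CCAAT followed 9 bases on by CCACG, in the last. Each pair motif reads the same on both strands. The stress element, the CCAAT box and a run of 3 alternating units, which joins 2 overlapping pairs, were searched on both strands.
Hspa1a, chr17:34972157-34972406, minus strand: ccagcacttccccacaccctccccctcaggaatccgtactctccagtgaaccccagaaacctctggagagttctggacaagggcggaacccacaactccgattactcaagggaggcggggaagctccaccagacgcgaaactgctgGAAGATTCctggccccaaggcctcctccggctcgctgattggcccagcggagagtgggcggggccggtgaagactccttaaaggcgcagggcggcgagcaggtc
Hspa1b, chr17:34959239-34959488, minus strand: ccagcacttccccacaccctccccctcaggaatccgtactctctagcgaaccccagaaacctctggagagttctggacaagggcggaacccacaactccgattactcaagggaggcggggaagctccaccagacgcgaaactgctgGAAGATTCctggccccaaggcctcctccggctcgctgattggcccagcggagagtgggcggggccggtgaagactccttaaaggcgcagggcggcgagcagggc
Hspb1, chr5:135887669-135887918, plus strand: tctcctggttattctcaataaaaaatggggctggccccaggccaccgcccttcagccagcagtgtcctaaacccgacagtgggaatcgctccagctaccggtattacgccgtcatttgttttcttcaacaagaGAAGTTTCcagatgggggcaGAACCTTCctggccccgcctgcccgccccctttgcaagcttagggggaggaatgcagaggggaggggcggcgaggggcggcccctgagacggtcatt
Hspd1, chr1:55087933-55088182, minus strand: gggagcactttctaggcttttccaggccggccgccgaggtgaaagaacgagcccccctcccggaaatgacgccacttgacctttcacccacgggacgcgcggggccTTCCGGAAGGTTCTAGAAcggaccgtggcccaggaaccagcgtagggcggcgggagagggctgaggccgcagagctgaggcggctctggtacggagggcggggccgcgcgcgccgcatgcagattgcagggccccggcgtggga
Hspa5, chr2:34771840-34772089, plus strand: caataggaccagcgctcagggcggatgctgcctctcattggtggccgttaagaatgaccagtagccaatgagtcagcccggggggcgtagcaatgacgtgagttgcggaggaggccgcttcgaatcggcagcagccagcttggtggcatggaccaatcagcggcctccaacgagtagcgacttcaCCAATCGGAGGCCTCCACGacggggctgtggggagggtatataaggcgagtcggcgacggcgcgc
The Hspa1a and Hspa1b windows differed at 3 of 250 bases, C44T, T47C and T249G, with positions counted from 1 at the 5′ end of the window and the Hspa1a base first. Both had 1 pair, GAAGATTC, from 104 to 97 bases before the start. Hspb1 had 2 pairs, and Hspd1 had 3 overlapping pairs that made 2 runs of 3 units at 1 of its 2 listed starts. Hsph1 also held 1 pair, TTCTCGAA, at each of its 2 starts, whereas neither Dnajb1 start held one. In all, 5 of the 7 genes, with 10 windows between them, had a pair, against 12.8% of 32851 mouse promoter windows of that length. A gene with 2 windows can match at either, and Hspa1a and Hspa1b are near copies, so these figures are not like for like. Hspa8, Hsp90aa1 and Hsp90ab1 had no promoter at hand. A run of 3 units was in 0.466% of the 32851 windows. Hspa5 had no pair, 4 CCAAT boxes and 1 endoplasmic reticulum stress element, from 65 to 47 bases before the start, an element found in 0.113% of windows. A match describes the letters only and does not show that a factor binds there.

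The near identity of Hspa1a and Hspa1b continues into the transcripts. Of the 90-base windows along the longest GENCODE vM21 Hspa1a transcript, 49.3% occurred unchanged in Hspa1b. None of the 411 windows in its last 500 bases did, and the same held for the last 500 bases of Hspa1b. How reads that match both genes were counted is not given in the sources used here, so the split between them is uncertain and their sum is given as well. No such shared window was found between any other pair of the 10 genes.

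The inducible HSP70 genes were highest in macrophages and the vessel wall. Hspa1a was at 218 CPM in mural cells of the fluconazole library and 261 CPM in those of the vehicle library. It was at 205 CPM with fluconazole and 300 CPM with vehicle in microglia. Border macrophages had 165 CPM with fluconazole and 323 CPM with vehicle, and endothelial cells, which line the vessels, had 89.6 CPM with fluconazole and 194 CPM with vehicle. The other 8 classes stayed between 5.27 and 28.7 CPM in the fluconazole library and between 10.8 and 93.1 CPM in the vehicle library, with fibroblasts at the upper end of both ranges. Neighbours in that order were often not separate: in the fluconazole library mural cells and microglia had overlapping intervals, and in the vehicle library border macrophages and microglia did. Hspa1b, the second inducible HSP70 gene, was highest in mural cells of both libraries, at 72.9 CPM with fluconazole and 90.8 CPM with vehicle. It was at 35.9 CPM with fluconazole and 68.0 CPM with vehicle in microglia and at 30.3 CPM with fluconazole and 70.0 CPM with vehicle in endothelial cells.

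The partners of HSP70 were spread differently. Dnajb1 was a gene of microglia, at 483 CPM in the fluconazole library and 541 CPM in the vehicle library, followed by border macrophages at 286 CPM with fluconazole and 319 CPM with vehicle. Its endothelial level was 111 CPM with fluconazole and 132 CPM with vehicle, and its lowest levels were neuronal, 12.6 CPM in GABAergic neurons of the fluconazole library and 22.3 CPM in glutamatergic neurons of the vehicle library. Hspb1 was a gene of the vessel wall: endothelial cells had 982 CPM with fluconazole and 1162 CPM with vehicle and mural cells 853 CPM with fluconazole and 1047 CPM with vehicle. The next class, fibroblasts, had 94.4 CPM with fluconazole and 203 CPM with vehicle, and microglia had 64.3 CPM with fluconazole and 75.5 CPM with vehicle. Hsph1 had the flattest profile of the 5 inducible genes, with 5.15-fold between its highest and lowest class in the fluconazole library, against 41.3-fold for Hspa1a. It was highest in oligodendrocytes, at 101 CPM with fluconazole and 97.8 CPM with vehicle.

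Among the constitutive genes, Hspa8 and Hspa5 were highest in the 2 macrophage classes. Hspa8 was at 1521 CPM with fluconazole and 1450 CPM with vehicle in border macrophages and at 1396 CPM with fluconazole and 1558 CPM with vehicle in microglia, so the order of these neighbours differed between libraries. Hspa5 was at 999 CPM with fluconazole and 1063 CPM with vehicle in border macrophages and 972 CPM with fluconazole and 1115 CPM with vehicle in microglia, while endothelial cells had 283 CPM with fluconazole and 292 CPM with vehicle. Oligodendrocytes led for both HSP90 genes. Hsp90ab1 was at 1294 CPM with fluconazole and 1666 CPM with vehicle there, and Hsp90aa1 at 1282 CPM with fluconazole and 1455 CPM with vehicle. Neuroblasts followed for Hsp90aa1 with 731 CPM with fluconazole and 806 CPM with vehicle. In endothelial cells Hsp90ab1 was at 1104 CPM with fluconazole and 1224 CPM with vehicle but Hsp90aa1 at 239 CPM with fluconazole and 272 CPM with vehicle. The count ratio of Hsp90aa1 to Hsp90ab1 was 0.216 with fluconazole and 0.222 with vehicle in endothelial cells, against 0.991 with fluconazole and 0.874 with vehicle in oligodendrocytes. Hspd1 was highest in neuroblasts, at 130 CPM with fluconazole and 156 CPM with vehicle.

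**Figure D1:**
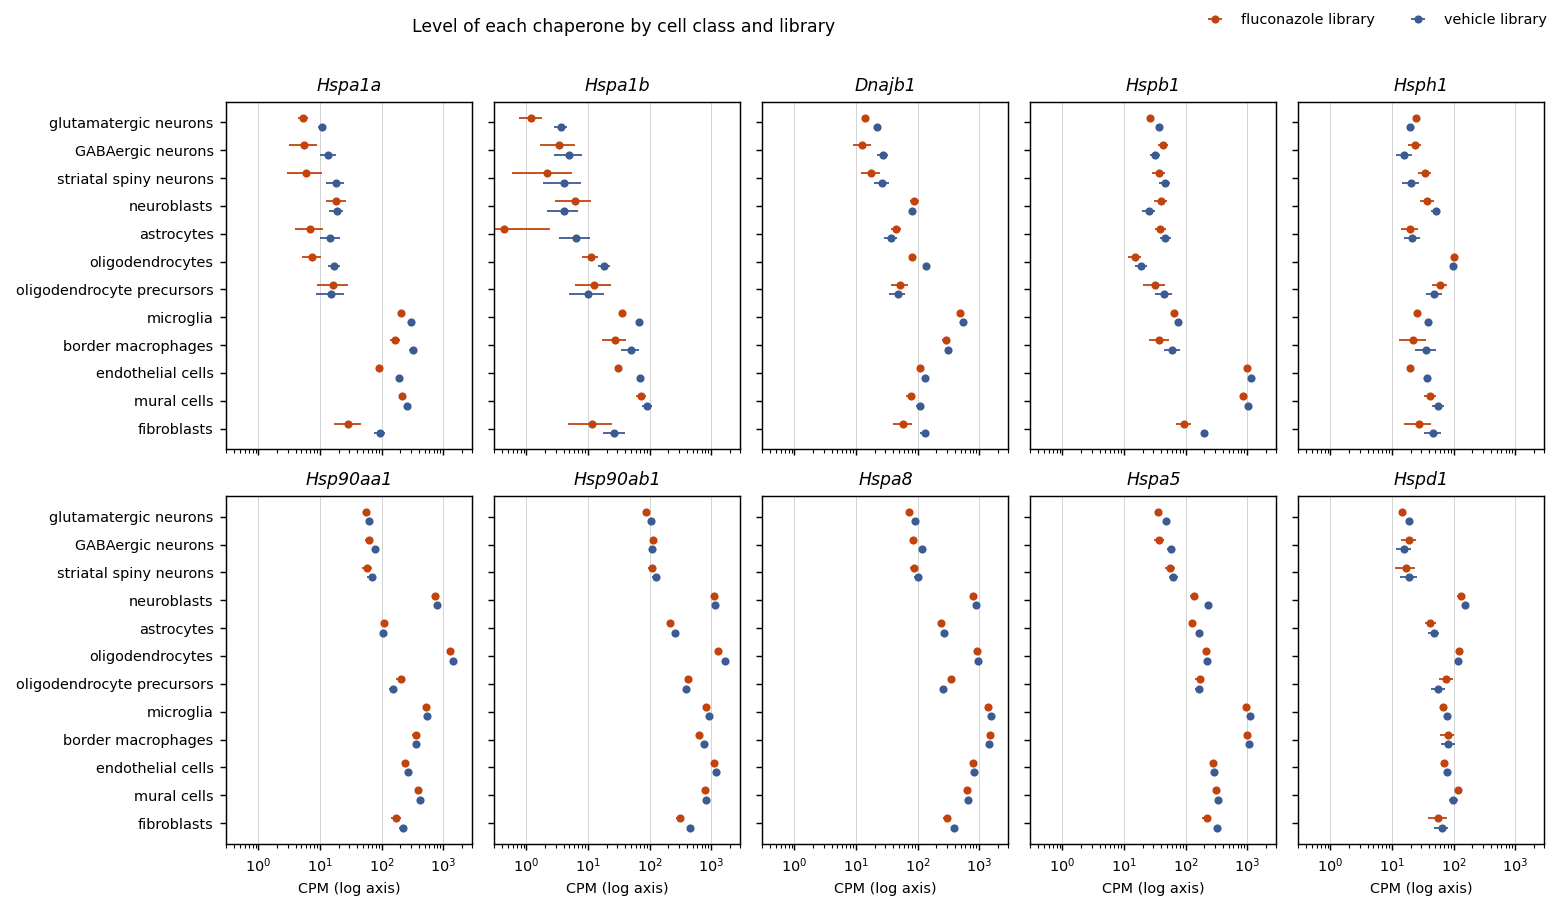
Level of each of the 10 chaperone genes (CPM, log axis) in 12 cell classes, with the fluconazole library drawn above the vehicle library. Bars are exact Poisson 95% intervals; Hspb1 stands out in endothelial and mural cells, Dnajb1 and Hspa5 in microglia and border macrophages, and both HSP90 genes in oligodendrocytes, with neurons low in most panels.

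Neurons had the lowest levels of most members, and several were no higher than transcripts that neurons should lack. Content differed between classes too. In the fluconazole library the median mitochondrial share was 0.212% in glutamatergic neurons and 2.61% in endothelial cells. Summed ribosomal protein genes were at 3997 CPM in those neurons and 72602 CPM in endothelial cells. RNAs retained in the nucleus were at 57183 CPM in those neurons and 18858 CPM in endothelial cells. The part of such content in the order of classes was not tested. Markers of microglia, summed, stood in glutamatergic neurons at 12.2% of their whole-library CPM in the fluconazole library and 13.3% in the vehicle library. Endothelial markers stood at 9.06% with fluconazole and 11.02% with vehicle, and oligodendrocyte markers at 8.76% with fluconazole and 10.2% with vehicle. These values gauge free RNA and mixed barcodes. On the same scale Hspa1a stood at 6.98% with fluconazole and 8.86% with vehicle, and Hspa1b at 6.46% with fluconazole and 10.6% with vehicle. Dnajb1 stood at 9.38% with fluconazole and 12.6% with vehicle, and Hspb1 at 10.3% with fluconazole and 12.9% with vehicle. Hspa8, at 11.4% with fluconazole and 12.8% with vehicle, and Hspa5, at 10.7% with fluconazole and 12.7% with vehicle, were also within that range. Counts of these 6 genes in glutamatergic neurons are therefore not told apart from background, and a library difference in them is not read as one between neurons. Of them, Dnajb1, Hspb1, Hspa8 and Hspa5 lay under the microglial markers only. Here and below, a gene at background or read as background is one not above this gauge. That does not show that the class lacks its transcript. Hsph1 was clearly above the gauge, at 81.3% with fluconazole and 54.2% with vehicle of its whole-library level. Hspd1, at 26.4% with fluconazole and 30.1% with vehicle, was also above the highest of the 3 marker values. Nearer to it, but still above, were Hsp90aa1 at 17.7% with fluconazole and 17.2% with vehicle and Hsp90ab1 at 14.6% with fluconazole and 15.1% with vehicle. In astrocytes, Hspa1a at 9.21% with fluconazole and 12.01% with vehicle and Hspb1 at 15.1% with fluconazole and 16.6% with vehicle lay within the range of microglial, endothelial and oligodendrocyte markers, 7.18% to 20.7% in the fluconazole library and 10.7% to 19.2% in the vehicle library. Hspb1 in oligodendrocytes, at 5.79% with fluconazole and 6.65% with vehicle, was within the range of microglial and endothelial markers there.

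**Figure D2:**
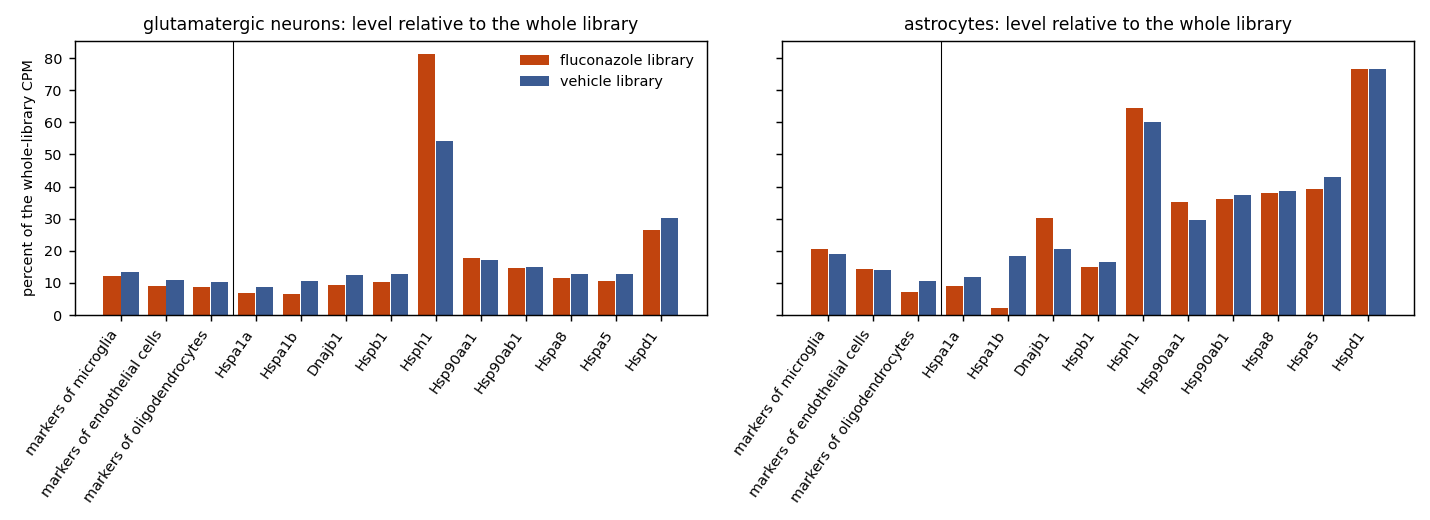
Percent of the whole-library CPM reached in glutamatergic neurons and in astrocytes by summed markers of 3 other cell types (left of the line) and by each chaperone gene, fluconazole bars left of vehicle bars. In glutamatergic neurons Hspa1a, Hspa1b, Dnajb1, Hspb1, Hspa8 and Hspa5 lie at or under the height of the microglial markers, whereas Hsph1 reaches 81.3% with fluconazole and 54.2% with vehicle.

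The balance of the 2 groups followed the cell class. The inducible genes made up 40.1% of the UMIs of both groups in mural cells of the fluconazole library (38.9 to 41.4) and 44.8% in the vehicle library (43.4 to 46.2). Endothelial cells followed at 35.5% with fluconazole and 39.8% with vehicle. Microglia had 19.9% with fluconazole and 21.8% with vehicle, and border macrophages had 14.3% with fluconazole and 19.0% with vehicle. Oligodendrocytes had 7.75% with fluconazole and 8.88% with vehicle. Counts of Hspa1a and Hspa1b per count of Hspa8, inducible against constitutive HSP70, were 0.455 with fluconazole and 0.538 with vehicle in mural cells. Microglia had 0.173 with fluconazole and 0.236 with vehicle, and endothelial cells had 0.153 with fluconazole and 0.323 with vehicle. Oligodendrocytes had the lowest of these 4 ratios, 0.0196 with fluconazole and 0.0369 with vehicle. That ratio was lower in the fluconazole library in each of these 4 classes. Hspa1a gave 85.1% with fluconazole and 81.5% with vehicle of the HSP70 pair in microglia but 40.2% with fluconazole and 48.5% with vehicle in oligodendrocytes, within the uncertainty of the split.

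The comparison of treatments asks whether chaperone transcripts stood at other levels after fluconazole. Over all kept barcodes every one of the 10 members was lower in the fluconazole library, and the inducible HSP70 pair stood furthest from its vehicle level. The share of all genes that were lower was not counted over all kept barcodes, so the count of members has no background beside it there. Hspa1a was at 75.5 CPM in the fluconazole library and 122 CPM in the vehicle library, a log2 ratio of -0.69 (-0.74 to -0.64). Hspa1b was at 18.3 CPM with fluconazole and 34.4 CPM with vehicle, a log2 ratio of -0.91 (-1.01 to -0.81). The other 8 members had log2 ratios between -0.26 for Dnajb1 and -0.13 for Hspb1. Summed, the inducible group was at 532 CPM in the fluconazole library and 654 CPM in the vehicle library (-0.30), and the constitutive group at 1619 CPM with fluconazole and 1846 CPM with vehicle (-0.19). Cell classes differ widely in chaperone levels, and their shares differ too: endothelial cells were 21.7% of fluconazole and 17.4% of vehicle barcodes. The values within classes therefore follow.

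In endothelial cells Hspa1a was at 89.6 CPM in the fluconazole library (84.1 to 95.3) and 194 CPM in the vehicle library (186 to 203), a log2 ratio of -1.12 (-1.23 to -1.01). Hspa1b was at 30.3 CPM with fluconazole and 70.0 CPM with vehicle, a log2 ratio of -1.21 (-1.40 to -1.02). Hsph1 had 19.8 CPM with fluconazole and 37.6 CPM with vehicle there, a log2 ratio of -0.92 (-1.17 to -0.68). These 3 genes were past 1.5-fold, the size used to call a difference in 1 library a side. Dnajb1 (-0.25) and Hspb1 (-0.24) were lower by less, Hspa8 (-0.06) and Hspa5 (-0.04) were closest to equal, and Hsp90ab1 (-0.15), Hsp90aa1 (-0.19) and Hspd1 (-0.16) lay between. Thus 3 of 10 members were at least 1.5-fold lower, where 4.6% of 14657 genes with at least 20 UMIs were, and none was as much higher (4.23% of genes). The median log2 ratio of the 5 inducible genes was -0.92 and that of the 4 constitutive genes -0.10, beside -0.01 over all genes. Mitochondrially encoded genes, 13 of 13 higher with a median log2 ratio of 0.17, and haemoglobin and other red cell markers, at 3480 CPM in the fluconazole library and 4925 CPM in the vehicle library, also differed in this class. Their part in the result was not tested.

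In microglia Hspa1a, Hspa1b and Hsph1 again had the lowest log2 ratios of the 10 members, nearer to 0 than in endothelial cells. Hspa1a was at 205 CPM in the fluconazole library (198 to 213) and 300 CPM in the vehicle library (291 to 309), a log2 ratio of -0.55 (-0.61 to -0.48). Hspa1b was at 35.9 CPM with fluconazole and 68.0 CPM with vehicle (-0.92, from -1.07 to -0.77) and Hsph1 at 25.3 CPM with fluconazole and 38.8 CPM with vehicle (-0.61, from -0.80 to -0.43). For Hsph1 the ratio was under 1.5-fold after thinning (-0.52) or without the barcode that held most chaperone UMIs (-0.58). Dnajb1, highest in this class, was at 483 CPM with fluconazole and 541 CPM with vehicle (-0.17). All 10 members were lower, 2 of them by at least 1.5-fold, where 5.86% of 15567 genes were. No member was as much higher (3.82% of genes). The inducible median was -0.55 and the constitutive one -0.18, against -0.01 over all genes. Red cell markers were at 747 CPM in the fluconazole library and 1154 CPM in the vehicle library, and their part was not tested.

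Other classes outside the neurons differed more in size than in direction. In border macrophages, which sit at the brain's surfaces and vessels, Hspa1a was at 165 CPM in the fluconazole library and 323 CPM in the vehicle library (-0.97), and 4 members, Hspa1a, Hspa1b, Hspb1 and Hsph1, were at least 1.5-fold lower (9.54% of genes). After thinning to 1500 UMIs per barcode Hspb1 had -0.44 and Hsph1 0.0297, below that size. None was as much higher, where 9.54% of genes were. Red cell markers stood in border macrophages at 86.5 CPM with fluconazole and 1212 CPM with vehicle, and 70 of 76 ribosomal protein genes were lower there (median -0.20), and their part in the result was not tested. Mural cells, which wrap the vessels, had Hspa1a at 218 CPM with fluconazole and 261 CPM with vehicle (-0.26, from -0.47 to -0.06), and no member passed 1.5-fold in either direction (7.3% of genes lower, 6.24% higher), while red cell markers were at 162 CPM with fluconazole and 1940 CPM with vehicle. Fibroblasts had 28.7 CPM with fluconazole and 93.1 CPM with vehicle of Hspa1a (-1.70), all 5 inducible members at least 1.5-fold lower (15.3% of genes) and none higher (9.28%). That class rests on 165 barcodes with fluconazole and 295 barcodes with vehicle, and 1 vehicle barcode held 24.1% of its Hspa1a UMIs, while 75 of 76 ribosomal protein genes were also lower there, with a median log2 ratio of -0.55. Red cell markers in fibroblasts were at 158 CPM with fluconazole and 1990 CPM with vehicle, and their part was not tested. Astrocyte markers were at 1998 CPM with fluconazole and 1924 CPM with vehicle there, and fibroblast markers at 1827 CPM with fluconazole and 2104 CPM with vehicle. Hspa1a, Dnajb1 and Hspb1 stood at 37.97%, 38.6% and 36.4% of their whole-library levels with fluconazole, near the microglial markers at 32.99%. With vehicle these genes stood at 76.6%, 73.5% and 71.5%, against 29.8%. The part of such mixed content was not tested. After thinning, Hspa1b (0.25) and Hsph1 (0.0175) were no longer lower in fibroblasts, and Hspb1 was at 0.45 in barcodes with at most 1% mitochondrial UMIs. In oligodendrocytes, which make myelin, Hspa1a was at 7.40 CPM with fluconazole and 17.2 CPM with vehicle. Hspa1b had 10.98 CPM with fluconazole and 18.3 CPM with vehicle there, and Dnajb1 had 81.8 CPM with fluconazole and 137 CPM with vehicle. These were the 3 members past 1.5-fold lower (4.78% of genes), with none higher (5.11%), although 1 vehicle barcode held 11.7% of the Dnajb1 UMIs and Hspa1b was at -0.10 after thinning.

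Neuroblasts and oligodendrocyte precursors departed from that direction for the HSP70 pair. Neuroblasts had the pair at 24.5 CPM in the fluconazole library and 22.7 CPM in the vehicle library, and oligodendrocyte precursors at 29.3 CPM with fluconazole and 25.2 CPM with vehicle, with intervals of both log2 ratios on both sides of 0. In neuroblasts 1 fluconazole barcode held 43.3% of the Hspa1a UMIs and 1 vehicle barcode 27.1%. In neuroblasts Hspa5 was at 138 CPM with fluconazole and 230 CPM with vehicle (-0.74, from -0.96 to -0.52), the 1 member at least 1.5-fold lower (7.81% of genes), while 1 vehicle barcode held 10.8% of its UMIs and the ratio was -0.46 with doublets kept. Hspb1 was the 1 member as much higher (4.64% of genes), at 39.8 CPM with fluconazole and 25.2 CPM with vehicle, with 1 fluconazole barcode holding 18.5% of its UMIs and a ratio of 0.30 as a mean over barcodes. At 15.4% of its whole-library level with fluconazole and 8.86% with vehicle, Hspb1 in neuroblasts lay near the microglial markers (13.1% with fluconazole and 16.4% with vehicle) and the endothelial markers (8.55% with fluconazole and 8.14% with vehicle), so it is not read above background. In oligodendrocyte precursors 9 of 10 members were higher in the fluconazole library, none by 1.5-fold (10.8% of genes higher, 11.1% lower). Hspa8, at 350 CPM with fluconazole and 262 CPM with vehicle, had a log2 ratio of 0.42 (0.17 to 0.67). That class held 133 barcodes with fluconazole and 210 barcodes with vehicle, 1 fluconazole barcode held 13.1% of its Hspa8 UMIs, and 65 of 76 ribosomal protein genes were higher there as well. Markers of oligodendrocytes were at 2422 CPM with fluconazole and 1689 CPM with vehicle in that class, markers of immature oligodendrocytes at 2624 CPM with fluconazole and 1793 CPM with vehicle, and red cell markers at 127 CPM with fluconazole and 1349 CPM with vehicle. Their part in these values was not tested.

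Hsph1 was higher in the fluconazole library in all 3 neuronal classes, whereas it was lower in endothelial cells and microglia. Glutamatergic neurons had 24.6 CPM in the fluconazole library (22.5 to 26.9) and 19.3 CPM in the vehicle library (17.4 to 21.5), a log2 ratio of 0.35 (0.15 to 0.55). GABAergic neurons had 23.5 CPM with fluconazole and 15.8 CPM with vehicle (0.57), and striatal spiny neurons 34.0 CPM with fluconazole and 20.2 CPM with vehicle (0.75, from 0.17 to 1.34). The ratio in spiny neurons was 0.41 after thinning and 0.52 with finer clusters, both under 1.5-fold. Thinned shares of spiny barcodes with Hsph1 were 3.05% with fluconazole and 3.24% with vehicle, while both other neuronal classes had the higher share with fluconazole. In glutamatergic, GABAergic and spiny neurons, summed RNAs retained in the nucleus were also higher (0.16, 0.24 and 0.23). Summed ribosomal protein genes were lower (-0.39, -0.37 and -0.37), and the part of either in the Hsph1 values was not tested. Hsph1 is the member with neuronal counts furthest above the background gauge. Whether its log2 ratio differs between neurons and the other classes was not tested, since each treatment has 1 library. Counted without regard to that gauge, 3 members were at least 1.5-fold lower in glutamatergic neurons (5.92% of genes) and none higher (3.54%). GABAergic neurons had 3 lower (8.59%), of which Hspa5 was at -0.50 with doublets kept, and none higher (4.87%). Those 3 genes, Hspa1a, Dnajb1 and Hspa5, stood under the microglial markers of that class in both libraries. Striatal spiny neurons had 1 lower (11.5%) and 1 higher, Hsph1 (5.98%). The lower genes of glutamatergic neurons, Hspa1a, Hspa1b and Dnajb1, were all at background, Hspa1b was at 1.505 after thinning on 7 UMIs with fluconazole and 3 UMIs with vehicle, and 74 of 76 ribosomal protein genes were lower in the same barcodes (median -0.40). Astrocytes had 1 member at least 1.5-fold lower, Hspa1a at 6.95 CPM with fluconazole and 14.6 CPM with vehicle (7.28% of genes), and none higher (4.58%), and that gene was at 0.58 after thinning, on 6 UMIs with fluconazole and 4 UMIs with vehicle. Red cell markers in astrocytes were at 350 CPM with fluconazole and 2001 CPM with vehicle, and their part was not tested.

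Across the 12 classes the pair Hspa1a and Hspa1b, summed, was lower in the fluconazole library in 10, and by at least 1.5-fold in 9. In 5 classes, the neuronal ones, astrocytes and oligodendrocyte precursors, Hspa1a stood at or under the microglial markers in both libraries and is read as background. Hspa1b did so too in glutamatergic and striatal spiny neurons and astrocytes, so the pair is read as background there. In oligodendrocyte precursors Hspa1b stood above those markers, at 69.5% with fluconazole and 29.3% with vehicle, against 27.5% with fluconazole and 27.1% with vehicle. In GABAergic neurons it was above them with fluconazole only, at 18.6% against 12.1%. In the 7 classes outside these 5 the pair was lower in 6, and by at least 1.5-fold in 5. Some of the 7 lay near the gauge. Fibroblasts had Hspa1a at 37.97% with fluconazole and 76.6% with vehicle, against microglial markers at 32.99% with fluconazole and 29.8% with vehicle. Oligodendrocytes had it at 9.80% with fluconazole and 14.1% with vehicle, against 7.94% with fluconazole and 7.48% with vehicle. The gauge was not applied to microglia and border macrophages. The inducible group was lower in 10 classes and the constitutive group in 11. The log2 ratio of the inducible group was -0.37 in endothelial cells (-0.40 to -0.34), -0.33 in microglia (-0.37 to -0.30) and -0.37 in glutamatergic neurons (-0.48 to -0.27). For the constitutive group it was -0.11 (-0.13 to -0.08), -0.17 (-0.18 to -0.15) and -0.32 (-0.38 to -0.26) in those classes. The glutamatergic values rest largely on genes at background, 4 of the 5 inducible and 2 of the 4 constitutive ones, and the inducible gene above it, Hsph1, was higher (0.35). In glutamatergic neurons the inducible value was -0.15 after thinning and -0.57 with 10% of UMIs taken as free RNA, which put the constitutive value at -0.70. At Leiden resolution 0.5 the constitutive value was -0.0441 in endothelial cells. With that free RNA setting the pair was lower in 6 of 8 classes that gave a value. The 12 classes come from the same 2 libraries, so they are not 12 independent observations.

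**Figure D3:**
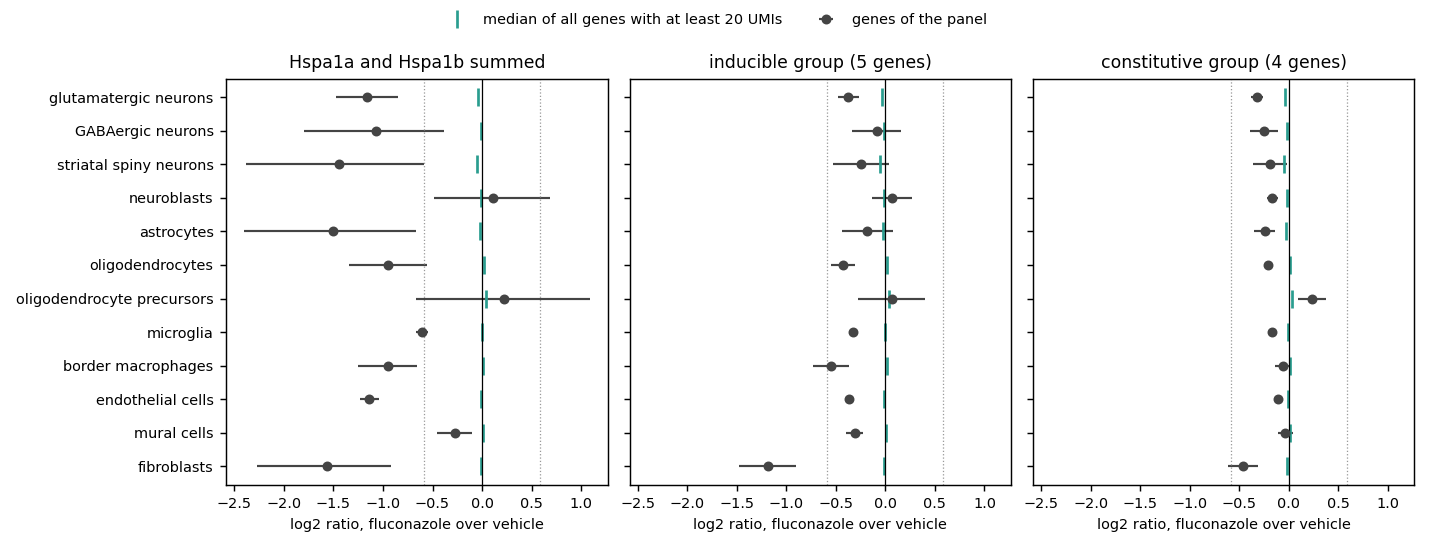
Log2 ratio of fluconazole over vehicle CPM in 12 cell classes for the summed HSP70 pair, the inducible group and the constitutive group (points, with exact conditional binomial 95% intervals), beside the median of all genes with at least 20 UMIs in the class (ticks); dotted lines mark 1.5-fold. The pair lies left of 0 in 10 classes, at -1.14 in endothelial cells and -0.61 in microglia, while the constitutive group stays within 1.5-fold in all 12; in 5 classes, the neuronal ones, astrocytes and oligodendrocyte precursors, Hspa1a was at background.

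The share of barcodes with an inducible HSP70 UMI was compared after thinning each barcode to 1500 UMIs, which left out 105 fluconazole and 201 vehicle barcodes among endothelial cells. In that class 10.7% of fluconazole barcodes (9.40 to 12.03) and 21.7% of vehicle barcodes (19.98 to 23.6) held an Hspa1a or Hspa1b UMI. Unthinned shares were 22.7% with fluconazole and 36.3% with vehicle. Microglia had 21.8% with fluconazole (20.1 to 23.5) and 26.4% with vehicle (24.8 to 28.0) when thinned, and 44.8% with fluconazole and 44.1% with vehicle unthinned, at median depths of 5992 UMIs with fluconazole and 4592 UMIs with vehicle. Mural cells had 26.2% with fluconazole and 30.4% with vehicle, with overlapping intervals. Glutamatergic neurons had 0.806% with fluconazole and 1.94% with vehicle, at median depths before thinning of 11206 UMIs with fluconazole and 7824 UMIs with vehicle, which is read as background here. Hspa8, the constitutive gene, was found in 64.6% with fluconazole and 67.4% with vehicle of thinned endothelial barcodes and in 80.5% with fluconazole and 83.1% with vehicle of thinned microglial ones. Most barcodes held Hspa8, so its share can differ less for the same ratio of levels than the low HSP70 shares. The sizes of these differences in share are therefore not compared.

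**Figure D4:**
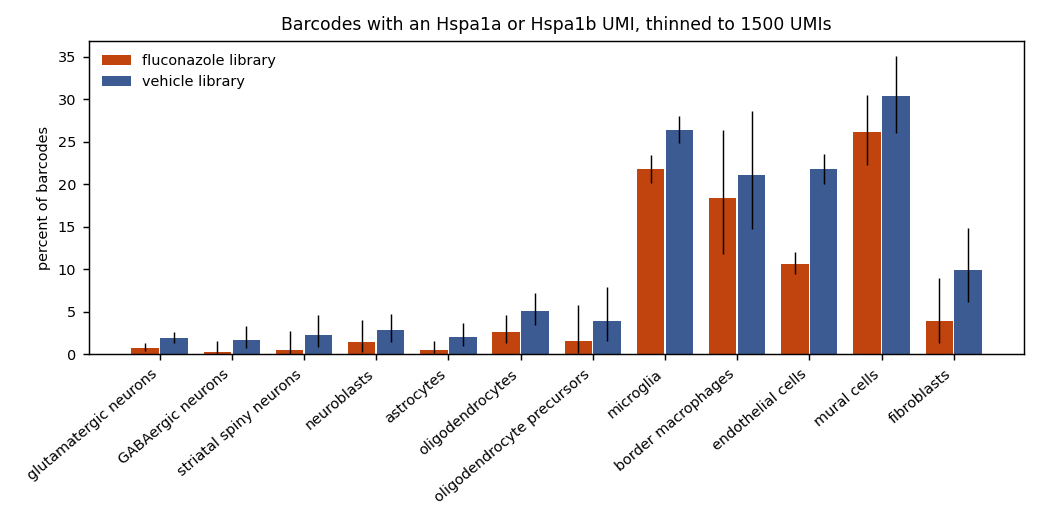
Percent of barcodes with at least 1 Hspa1a or Hspa1b UMI after thinning to 1500 UMIs, per cell class, fluconazole bars left of vehicle bars, with exact binomial 95% intervals. Endothelial cells show 10.7% with fluconazole and 21.7% with vehicle, and neurons, astrocytes and oligodendrocytes stay under microglia, border macrophages, endothelial cells and mural cells.

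The lower HSP70 level was present in all 3 endothelial and both microglial clusters. Among endothelial clusters the pair was at 124 CPM in the fluconazole library and 278 CPM in the vehicle library in the one led by Hmcn1 (-1.16). The cluster led by Gkn3 had 183 CPM with fluconazole and 363 CPM with vehicle (-0.99), and the one led by Gm5127 and Lrg1 had 70.3 CPM with fluconazole and 165 CPM with vehicle (-1.23). The 2 microglial clusters had 227 CPM with fluconazole and 359 CPM with vehicle (-0.66) and 267 CPM with fluconazole and 380 CPM with vehicle (-0.51). Mural cells split: the cluster led by Kcnj8, a pericyte gene, had 306 CPM with fluconazole and 437 CPM with vehicle (-0.52, from -0.75 to -0.29), and the one led by Tagln, a smooth muscle gene, 272 CPM with fluconazole and 258 CPM with vehicle (0.08, from -0.21 to 0.37). Over 29 clusters with at least 50 barcodes in each library the pair was lower in 26, and Hsph1 in 15. The constitutive group was also lower in 26, so that count does not set the pair apart. Unnamed clusters, and clusters of classes where Hspa1a was at background, are among the 29. These clusters come from the same 2 libraries and are not further replicates.

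Within ranges of mitochondrial share, which differed slightly between the libraries, the pair was mostly lower as well. Endothelial barcodes with 1% to 2.5% mitochondrial UMIs had the pair at 157 CPM in the fluconazole library and 302 CPM in the vehicle library (-0.94), and those with 2.5% to 5% had 86.6 CPM with fluconazole and 203 CPM with vehicle (-1.23). In microglia the log2 ratios were -0.74 under 1%, -0.49 from 1% to 2.5% and -0.94 from 2.5% to 5%. Among the 20 combinations of class and mitochondrial range with at least 50 barcodes in each library, the pair was lower in 18. The inducible group was lower in 17 and the constitutive group in 17 as well, so these counts do not set the inducible genes apart. All 12 classes are covered, including those where Hspa1a was at background. Bins with fewer barcodes were left out.

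In microglia HSP70 transcripts were found more often in barcodes that also held any of the 8 other members, in both libraries, and in endothelial cells this held for 7 of 8. Counts in other classes varied. In mural cells the share was higher beside 7 of 8 members with fluconazole and 4 of 8 members with vehicle. In border macrophages it was higher beside 6 with fluconazole and 5 with vehicle, and in fibroblasts beside 6 with fluconazole and 8 with vehicle. The microglial difference for Hspb1 in the vehicle library was small, 26.6% beside it and 26.4% without it. Among thinned microglia with a Dnajb1 UMI, 25.3% of fluconazole and 32.6% of vehicle barcodes held an Hspa1a or Hspa1b UMI, against 19.6% with fluconazole and 22.1% with vehicle without Dnajb1. With Hsph1, found in 74 thinned microglia with fluconazole and 157 with vehicle, the shares were 37.8% with fluconazole and 40.1% with vehicle, against 21.3% with fluconazole and 25.7% with vehicle without it. In endothelial cells the shares with Dnajb1 were 18.6% with fluconazole and 27.9% with vehicle, against 9.68% with fluconazole and 20.7% with vehicle without it. Hspd1, the mitochondrial chaperonin, was the exception in endothelial cells, at 8.92% with fluconazole and 21.7% with vehicle beside it and 10.9% with fluconazole and 21.8% with vehicle without it. All these barcodes had 1500 UMIs, and their shares carry counting error that was not tested. Co-detection with genes outside the set was not computed. The counts of members therefore have no background beside them and are not read as particular to chaperones.

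Across the 58 combinations of cluster and library, and 9603 genes with at least 2000 UMIs, the genes most like Hspa1a by Pearson's r of log2(CPM + 10) were Hspa1b (0.94), Junb (0.94), Btg2 (0.93), Dusp1 (0.93) and Zfp36 (0.92). Apart from its paralog these 4 are on the list of 17 immediate early genes. Those most like Hspa8 were Actb (0.98), Rps9 (0.97), Ftl1 (0.97), Lamtor4 (0.97) and Fau (0.97), which encode cytoskeletal, ribosomal, iron storage and lysosomal proteins. Between members, r was 0.95 for Dnajb1 and Hspa5, 0.96 for Hspa8 and Hsp90ab1, and 0.10 for Hspb1 and Hsph1. The combinations share 2 libraries, cell classes and depth, so these values describe and do not test.

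Immediate early genes, which resemble Hspa1a across clusters, did not follow its library difference in every class. In microglia 11 of 17 were higher and 6 lower in the fluconazole library, with a median log2 ratio of 0.03, and in border macrophages 14 were higher and 3 lower (0.12). In endothelial cells 14 were lower with a median of -0.06. GABAergic neurons had all 17 lower (-0.67) and fibroblasts all 17 lower (-0.75), and 13 genes in GABAergic neurons and 12 in fibroblasts were so by at least 1.5-fold, where 8.59% of genes in GABAergic neurons and 15.3% in fibroblasts were. These genes respond to stimulation and to tissue handling, and their part in the chaperone values was not tested.

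Most other genes of the chaperone network stood near their vehicle level in the larger classes. Of 40 cochaperones and other HSF1 targets, 31 were lower and 9 higher in endothelial cells, 1 of the lower ones past 1.5-fold, with a median log2 ratio of -0.11. The lowest in that class were Hspbp1, an HSP70 nucleotide exchange factor (-0.65), Dnaja1, an HSP40 (-0.52), and Hspe1, the partner of HSP60 (-0.39). Dnaja1 was at 370 CPM in the fluconazole library and 529 CPM in the vehicle library. Among the highest were the small heat shock protein Hspb8 (0.18) and the ubiquitin ligase gene Stub1 (0.10). Microglia had 26 of 39 lower (median -0.05), with Hspe1 (-0.40) lowest and Hspbp1 (0.30) highest. In oligodendrocytes the small heat shock protein Cryab was at 3128 CPM in the fluconazole library and 4047 CPM in the vehicle library (-0.37), the lowest log2 ratio of its list there. Fibroblasts had 10 of 39 genes of this list at least 1.5-fold lower, where 15.3% of genes were, with a median of -0.25 in a class whose ribosomal protein genes and red cell markers were lower too.

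Heat shock factor transcripts were close to equal in the largest non-neuronal classes. Hsf1, the master factor, was at 28.8 CPM with fluconazole and 28.0 CPM with vehicle in endothelial cells (0.04) and at 22.9 CPM with fluconazole and 23.7 CPM with vehicle in microglia (-0.05). Of the genes of the unfolded protein response of the endoplasmic reticulum, the pathway that controls Hspa5, 15 of 22 were lower in microglia (median -0.13) and 10 of 23 in endothelial cells (0.03), none past 1.5-fold in either class. The lowest in microglia were the luminal proteins Sdf2l1 (-0.37), Hyou1 (-0.35) and Manf (-0.34). The highest were the sensor genes Ern1 (0.21) and Atf6 (0.12). Of 9 genes for mitochondrial chaperones and import, 7 were lower in each of these classes (medians -0.13 in microglia and -0.07 in endothelial cells), and Hspe1 was the lowest of them in both. Over all genes the medians were -0.01 in both classes.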

How the data were processed

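The data are 1 10x Genomics 3′ library per treatment. The authors deposited raw UMI counts as whole numbers for every gene and barcode, per the file headers. The matrix headers name Cell Ranger 8.0.1, while mm10, R 4.0.3, Seurat 4.0.0 and Cell Ranger 9.0.0 are listed in the submitters' processing notes. The counting of introns and the calling of barcodes are not given in the sources used here. Of 33696 feature identifiers, 31961 are in GENCODE vM21.

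Kept barcodes had 500 or more genes and no more than 5% mitochondrial UMIs. Scrublet (scanpy 1.11.5, expected rate 8%) marked 517 fluconazole barcodes (4.09%) and 617 vehicle barcodes (4.13%) as doublets, which were left out. Counts were clustered with 2000 variable genes per library, chaperone genes left out, 30 components, 15 neighbours and Leiden resolution 1.0 (leidenalg 0.10.2). A cluster was named where 3 or more markers of a class reached 2-fold over the remaining clusters and 10% of its barcodes, with no rival class. UMIs were summed per class and library and scaled to CPM. A 3′ count holds 1 end per transcript, so CPM is not scaled by length and levels of different genes were not ranked. Intervals at 95% are exact Poisson for CPM, exact conditional binomial for ratios and exact Clopper-Pearson for shares, and treat each UMI as an independent draw. Ratios and intervals were checked on simulated independent Poisson counts. That check shares the assumption of the intervals and does not cover counts spread unevenly over barcodes. No p-value was computed. A gene with at least 20 UMIs in a class over both libraries was called at 1.5-fold. The members, lists and tests were chosen with earlier results of these data known. Named genes are the 10 members, of each wider list the 3 highest and 3 lowest log2 ratios among genes with at least 200 UMIs in the class, and the 5 genes most like Hspa1a and Hspa8. A gene that this rule names is not reported here. The alternatives tried were scaling, thinning to 1500 UMIs, doublets kept, mitochondrial limit, clustering, per-barcode means, 1 barcode left out, free RNA and the make-up of both groups.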

Additional observations from a re-analysis of the deposited data

How the results depend on the processing

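No paired analysis was possible because each treatment has 1 library and the libraries share only the replicate number 1. The 8 summed results, log2 ratios and counts of classes, were run under 94 alternatives. No summed log2 ratio reversed its direction, while a count of classes has no direction to reverse. Of the 94 values, 79 stayed within counting error or, for counts of classes, within 1.5 times. In glutamatergic neurons the inducible log2 ratio of -0.37 was -0.15 after thinning to 1500 UMIs, -0.57 with 10% of UMIs taken as free RNA and -0.64 without Hsph1. The constitutive one of -0.32 was -0.70 with 10% free RNA. In microglia the inducible ratio of -0.33 was -0.38 after thinning, -0.37 in barcodes with at most 1% mitochondrial UMIs and -0.24 with Hsp90aa1 added, and the constitutive ratio of -0.17 was -0.19 after thinning and -0.23 at 1%. In endothelial cells the inducible ratio of -0.37 was -0.33 both as a mean of barcode CPM and at Leiden resolution 0.5, and the constitutive ratio of -0.11 was -0.14 after thinning and -0.0441 at resolution 0.5. At the 1% limit 6 classes were lower for each group, because 8 classes then had enough barcodes, and endothelial cells gave no value. The count of classes with a lower HSP70 pair was added after seeing the data. It was 7 of 8 at that limit and 6 of 8 with 10% free RNA. Of 28 members called in a class, 6 reversed under 1 alternative each, on 3 to 16 UMIs a library. After thinning, Hspa1b in glutamatergic neurons was at 1.505, Hspa1a in astrocytes at 0.58, Hsph1 in border macrophages at 0.0297, and in fibroblasts Hspa1b was at 0.25 and Hsph1 at 0.0175. At the 1% limit Hspb1 in fibroblasts was at 0.45. The cause of these shifts was not tested. Members with under 20 UMIs in a class over both libraries were not called, and with 1 library per treatment the spread between mice or preparations was not measured.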
